A study of Homo sapiens with 4 samples.

Results

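Cancer-testis antigens are proteins of the germ line that tumours make again, and 8 families of them (MAGEA, MAGEB, MAGEC, GAGE, XAGE, PAGE, SSX and CTAG) are described here in MHCC-97H cells, a line of metastatic human hepatocellular carcinoma (HCC). Members were the protein-coding genes of the deposited expression table whose symbol begins with one of these family names followed by a digit. The rule found 62 of 58735 genes in the table, or of 19951 that are protein-coding. They were 12 MAGEA, 11 MAGEB, 3 MAGEC, 13 GAGE, 5 XAGE, 6 PAGE, 8 SSX and 3 CTAG genes. The label holds for 61 of them, which all lie on chromosome X. The other, SSX2IP on chromosome 1, matched by its name only: it encodes a centrosomal protein that binds SSX2 and is not a cancer-testis antigen, so it is given apart from the sums below. A further 9 genes with such names are not protein-coding and had 6 reads at most in any library.

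In somatic tissue these genes are kept silent largely by DNA methylation of their promoters, and loss of that methylation in tumours can switch them on. Peptides cut from the proteins are shown on MHC class I molecules, where T cells can see them, which made several of them vaccine and T cell receptor targets. MAGE proteins bind RING ubiquitin ligases and steer what these mark, SSX proteins act with Polycomb on chromatin and are the fusion partners of SS18 in synovial sarcoma, and the roles of GAGE, PAGE and XAGE proteins are little known.

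The study asked how migrasomes (Migs), vesicles that form on the retraction fibres of moving cells, act on HCC cells that take them up, and whether the hypoxia and the CD147 (basigin, a membrane glycoprotein) of the cells that shed them matter. Wild-type MHCC-97H cells received phosphate-buffered saline (PBS), 2 µg of Migs from normoxic MHCC-97H cells (normo-Migs), 2 µg from hypoxic MHCC-97H cells (hypo-Migs) or 2 µg from hypoxic MHCC-97H cells with CD147 knocked out (CD147KO-Migs), each for 24 h. RNA was sequenced from 1 library per condition, 4 in all, and the labels put all of them in batch 1. The recipient cells carry CD147 in every condition, and the RNA measured is that of a whole culture, in which fewer expressing cells and less RNA per cell cannot be told apart.

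The PBS library held 33882496 reads on genes, the normo-Migs library 34559968, the hypo-Migs library 40285223 and the CD147KO-Migs library 35043203. With 1 library per condition no difference below has a replicate check, and treatment and library cannot be told apart. A unit was called past the fold where its scaled reads differed by at least 2-fold between 2 libraries (1 or more on the log2 scale, in either direction). Intervals are 95% and cover counting error only, since they compare the reads of 2 libraries and not the conditions. They take each read as independent, yet more genes had 2 reads than 1 in each library (2058 against 1499 in PBS, with similar numbers in the others), so reads of one fragment may be counted apart and the intervals may be too narrow.

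Members that are named as copies of each other were summed before comparison, because reads from many of these copies cannot be placed safely. MAGEA3 and MAGEA6 were kept apart and also given as a sum. Genes of the comparison lists further below were not summed. The 13 GAGE genes formed one unit, and the pairs XAGE1A and XAGE1B, PAGE2 and PAGE2B, SSX2 and SSX2B, SSX4 and SSX4B, CTAG1A and CTAG1B, MAGEA2 and MAGEA2B, and MAGEA9 and MAGEA9B one unit each, which left 43 units. Of these, 18 had at least 10 reads in some library and were compared. The remaining 25 had fewer: 13 had no read in any library, and 12 had between 1 and 9 reads at most.

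The library labelled PBS stood apart from the other 3. It had 3 reads or fewer on 251 genes that each had at least 100 reads in all Mig libraries, and no other library had such a gene. In the other direction, 13 genes had at least 100 reads in the PBS library and 3 or fewer in every Mig library. CTAG2, the GAGE family and the SSX2 pair were among the features that the PBS library lacked. Every difference from PBS given below rests on that library. The comparisons among the Mig libraries use none of its reads, though the read filter and the scaling were set over all libraries, PBS included. Whether the PBS culture came from the same stock of cells as the others is not given in the sources used here, and a difference in stock and the treatment cannot be told apart in these folds.

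The promoters of the units that carry the results are shown first, because methylation of CG pairs is what silences these genes in somatic cells. The bases are the 250 before the transcription start in the RefSeq table of build GRCh38.p14, 5′ to 3′ on the gene's strand, with each CG in capitals. MAGEA3 is at chrX:152698544-152698793 (plus strand), MAGEA12 at chrX:152733507-152733756 (plus), MAGEB2 at chrX:30215313-30215562 (plus), PAGE1 at chrX:49695985-49696234 (minus), GAGE12J at chrX:49321787-49322036 (plus) and SSX2 at chrX:52707179-52707428 (minus).
MAGEA3: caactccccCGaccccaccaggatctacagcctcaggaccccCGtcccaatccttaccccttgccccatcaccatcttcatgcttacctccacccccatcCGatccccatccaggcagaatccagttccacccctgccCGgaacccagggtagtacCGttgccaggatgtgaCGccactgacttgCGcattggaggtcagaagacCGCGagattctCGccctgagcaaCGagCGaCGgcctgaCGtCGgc
MAGEA12: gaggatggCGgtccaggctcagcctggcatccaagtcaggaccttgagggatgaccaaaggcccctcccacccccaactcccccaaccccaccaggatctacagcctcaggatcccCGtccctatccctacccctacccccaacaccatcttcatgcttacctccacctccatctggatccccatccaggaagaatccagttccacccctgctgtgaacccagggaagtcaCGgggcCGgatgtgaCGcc
MAGEB2: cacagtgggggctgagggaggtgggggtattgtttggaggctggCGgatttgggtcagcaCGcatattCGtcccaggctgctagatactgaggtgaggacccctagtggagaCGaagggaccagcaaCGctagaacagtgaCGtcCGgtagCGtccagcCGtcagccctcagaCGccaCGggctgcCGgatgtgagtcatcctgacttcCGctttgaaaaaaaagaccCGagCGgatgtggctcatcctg
PAGE1: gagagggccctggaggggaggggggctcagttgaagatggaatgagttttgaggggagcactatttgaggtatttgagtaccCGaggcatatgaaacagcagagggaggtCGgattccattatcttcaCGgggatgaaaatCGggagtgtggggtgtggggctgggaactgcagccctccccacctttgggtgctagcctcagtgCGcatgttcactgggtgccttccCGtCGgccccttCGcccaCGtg
GAGE12J: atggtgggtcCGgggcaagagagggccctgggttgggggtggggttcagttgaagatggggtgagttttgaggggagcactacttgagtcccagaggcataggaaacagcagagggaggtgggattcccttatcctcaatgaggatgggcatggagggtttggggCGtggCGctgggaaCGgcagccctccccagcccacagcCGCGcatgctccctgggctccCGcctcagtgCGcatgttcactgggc
SSX2: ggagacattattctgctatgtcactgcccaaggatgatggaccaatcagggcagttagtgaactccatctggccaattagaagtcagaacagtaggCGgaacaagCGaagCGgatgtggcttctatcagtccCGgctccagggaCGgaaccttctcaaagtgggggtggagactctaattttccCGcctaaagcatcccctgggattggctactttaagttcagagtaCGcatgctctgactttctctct
MAGEA3 and MAGEA6 had the same 250 bases, as did SSX2 and SSX2B, and GAGE12J shared its bases with other GAGE genes, 9 genes in all. The table held 54 of the 62 members. CTAG1A, CTAG1B, CTAG2, GAGE2E, MAGEA1, MAGEA10, MAGEB17 and SSX3 had no entry.

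At the start nearest to that of the deposited table, the X-linked members had between 1 and 18 CG pairs in this window, with a median of 8, beside a median of 11 over the 35116 promoters of the table. For some genes the nearest start was far off: 188705 bases for GAGE12B, 56350 for MAGEC3 and 23832 for MAGEA11, which gave the 18. These genes are kept in the counts here, though such windows may not be their promoters. Among the printed ones, MAGEA3 and MAGEB2 held 15 each, PAGE1 9, GAGE12J 8, SSX2 7 and MAGEA12 5. SSX2IP held 26. The letters GGATGTG, searched on both strands and chosen after the sequences had been seen, stood in 23 of all 70 promoter rows of members (32.9%), some genes having several starts, and in 3.52% of all promoters of the same length. At the start nearest to that of the deposited table they stood in 15 of 53 X-linked members. Counted there, they occurred in 10 of 10 MAGEA genes and 2 of 10 MAGEB genes (MAGEB2 and MAGEB16), in 1 of 3 MAGEC genes and 2 of 7 SSX genes, and in no GAGE, PAGE or XAGE gene, while MAGEB1 held them at another of its starts. A match describes the letters only: MAGEA4 has them and had no read in any library.

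In the PBS library 4 antigens took most of the 15552 antigen reads: MAGEA3 with 19.8%, MAGEB2 with 19.2%, MAGEA1 with 18.4% and PAGE1 with 16.4%. In the Mig libraries the order was another one, and alike in each. MAGEB2 led with 30.0% in normo-Migs, 30.5% in hypo-Migs and 29.2% in CD147KO-Migs, followed by MAGEA6 with 21.6%, 20.9% and 21.7% and by CTAG2 with 13.9%, 13.9% and 15.2%. MAGE genes of the A, B and C families together made up 83.4% of antigen reads in PBS and 76.6%, 76.6% and 75.8% in normo-Migs, hypo-Migs and CD147KO-Migs.

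The summed antigen reads, which net members that went both ways, were within the fold in every comparison. The 61 X-linked members gave 451 reads per 1000000 after TMM scaling (CPM) in PBS, 377 in normo-Migs, 369 in hypo-Migs and 377 in CD147KO-Migs. The Mig libraries were thus 0.837 times (interval 0.818 to 0.857), 0.820 times (0.802 to 0.839) and 0.836 times (0.817 to 0.856) the PBS level. Among the Mig libraries each interval included 1, with 0.979 times (0.956 to 1.00) for hypo-Migs against normo-Migs, 0.981 times (0.958 to 1.00) for hypo-Migs against CD147KO-Migs and 0.999 times (0.975 to 1.02) for CD147KO-Migs against normo-Migs. The sum depends on which members enter it. Without MAGEB2, its member with the most reads, the log2 ratio to PBS went in normo-Migs from -0.26 to -0.46, in hypo-Migs from -0.29 to -0.50 and in CD147KO-Migs from -0.26 to -0.45.

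Per length, in fragments per kilobase of transcript and per 1000000 fragments (FPKM) as deposited, the order of levels differed between PBS and the Mig libraries. PAGE1 stood highest in PBS at 111 FPKM, followed by MAGEB2 at 53.6, MAGEA3 at 49.9, MAGEA1 at 48.5, MAGEA6 at 35.1 and MAGEA12 at 23.5 FPKM. In normo-Migs the order was MAGEB2 at 69.7, CTAG2 at 52.4, MAGEA6 at 43.3, the summed GAGE genes at 28.2, MAGEA3 at 26.3, MAGEA12 at 14.5 and MAGEA1 at 8.81 FPKM. In hypo-Migs MAGEB2 stood at 69.4, CTAG2 at 51.2, the summed GAGE genes at 43.2 and MAGEA6 at 41.1 FPKM. In CD147KO-Migs MAGEB2 stood at 67.8, CTAG2 at 57.1, MAGEA6 at 43.5 and the summed GAGE genes at 35.4 FPKM. The summed FPKM of the GAGE genes depends on how reads were split between copies of unlike length. GAGE1, 3237 bases long, had 309 reads in normo-Migs and 79 in hypo-Migs, and GAGE12J, 541 bases long, had 91 and 439. The summed GAGE reads of hypo-Migs were 1.09 times those of normo-Migs after scaling (0.993 to 1.20). The rank of the GAGE genes by FPKM is therefore not a safe level. SSX2IP, whose transcript is long, had 5.82 FPKM in PBS and between 7.08 and 7.69 in the Mig libraries.

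**Figure D1:**
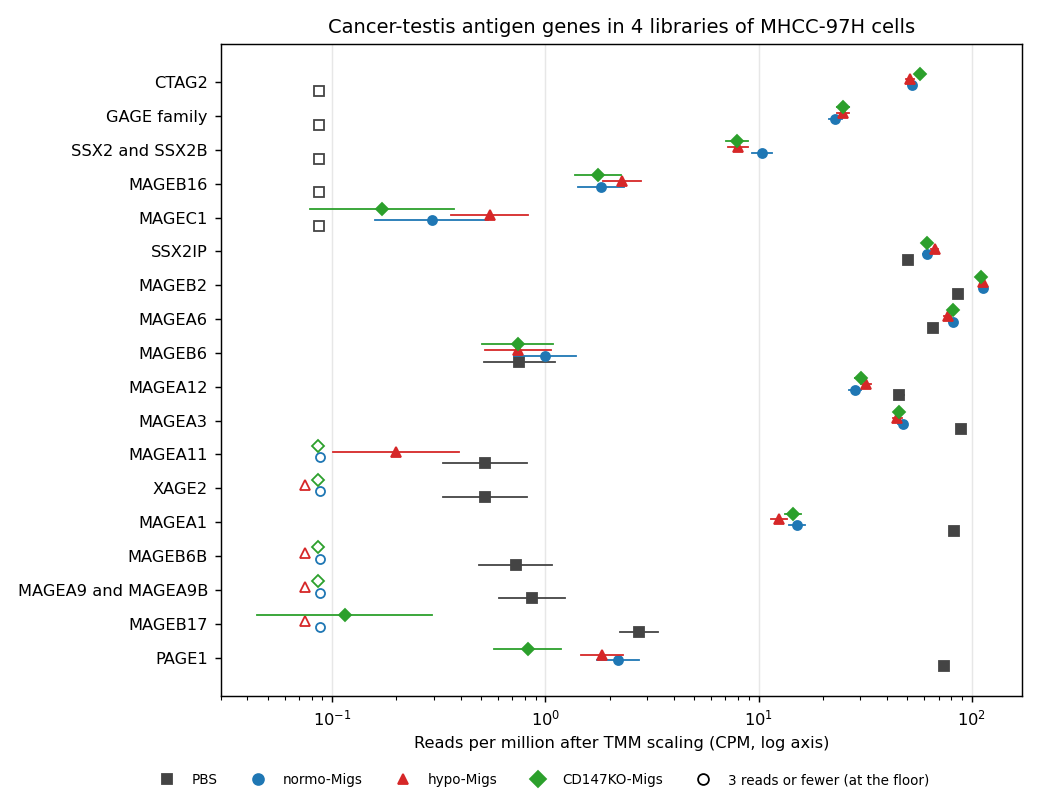
Reads per 1000000 after TMM scaling (CPM, log axis) for the 18 units with at least 10 reads in a library, 1 point for each of the 4 libraries, with 95% Wilson intervals of counting error. Open symbols mark 3 reads or fewer and are drawn at the level of 3 reads. CTAG2, the GAGE family, the SSX2 pair, MAGEB16 and MAGEC1 are at the floor in PBS only, MAGEB6B, XAGE2 and the MAGEA9 pair in the Mig libraries only, and for units with at least 100 reads in a library the Mig libraries lie within the fold of each other, PAGE1 excepted.

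Against PBS, 12 of the 18 units were past the fold in each of the 3 comparisons, 5 of them higher in the Mig library and 7 lower. SSX2IP, which is not an antigen, is one of the 18 and was within the fold. It is also one of the 10 units with at least 100 reads used below. Most of the 12 had enough reads only in the library where they were high, and with 10 reads required in every library, 2 of 8 units were past the fold each time, MAGEA1 and PAGE1. Of all 19888 features compared, 30.1% were past the fold in normo-Migs (18.1% higher and 12% lower), 30.5% in hypo-Migs (18.8% and 11.6%) and 30.3% in CD147KO-Migs (18.3% and 12%). Of the 10 units with at least 100 reads in a library, 5 were past the fold each time, beside 20.1%, 20.5% and 20.5% of the 12987 features that met the same filter. CTAG2, the GAGE family and the SSX2 pair met it through the Mig libraries alone and PAGE1 through PBS alone, so the units' count is a description and supports nothing. Other features on chromosome X were past the fold in 31.3%, 32.2% and 32.7% of 643 cases. The 3 comparisons share the PBS library, so their counts are not independent of one another. The median log2 fold change of the 18 units, with units at 0 in a library put at the bound that 3 reads give, was -0.20, -0.26 and -0.31, and that of all features was 0.03, 0.04 and 0.03.

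CTAG2 (ENSG00000126890, chrX:154651972-154653579, minus strand), also known as LAGE-1 and a close relative of NY-ESO-1, had 0 reads in PBS, 1789 in normo-Migs, 2058 in hypo-Migs and 2005 in CD147KO-Migs. With 3 reads as the floor per library, it was at least 604-fold higher in normo-Migs, 590-fold in hypo-Migs and 659-fold in CD147KO-Migs. CTAG1A and CTAG1B, the copies of the gene for NY-ESO-1, had 0, 3, 3 and 6 reads in the same order. The longest CTAG2 transcript of GENCODE 29 shares 26.8% of its 100-base windows with CTAG1A, so a small part of its sequence could draw reads of the other gene.

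The GAGE family, a cluster of related genes of unknown role on the short arm of chromosome X, had 1 read in PBS, 779 in normo-Migs, 1002 in hypo-Migs and 874 in CD147KO-Migs. The ratio to PBS was 789 in normo-Migs (interval 141 to 31208), 862 in hypo-Migs (154 to 34065) and 861 in CD147KO-Migs (154 to 34060). The widths of these intervals come from the single PBS read, which is under the floor, so these ratios are not to be ranked against the bounds given for CTAG2.

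SSX2 and SSX2B, which encode the same chromatin protein, together had 0 reads in PBS, 354 in normo-Migs, 323 in hypo-Migs and 277 in CD147KO-Migs. They were at least 120-fold, 92.6-fold and 91.0-fold higher in the Mig libraries. SSX1 had 6 reads in PBS and 0 in each Mig library, and no other SSX unit passed 2 reads. SSX2IP, the SSX2 partner, was within the fold: 1738, 2102, 2691 and 2173 reads, with log2 fold changes of 0.29, 0.41 and 0.30.

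MAGEB16 and MAGEC1 completed the higher side at far lower levels. MAGEB16, a MAGE gene of unknown partner, had 0 reads in PBS and 62, 92 and 62 in normo-Migs, hypo-Migs and CD147KO-Migs, at least 20.9-fold, 26.4-fold and 20.4-fold higher. MAGEC1, often expressed in multiple myeloma, had 0 reads in PBS and 10, 22 and 6, at least 3.38-fold, 6.31-fold and 1.97-fold higher.

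PAGE1 (ENSG00000068985, chrX:49687450-49695993, minus strand), first found in prostate cancer, was the antigen with the largest fall from PBS among those with at least 100 reads. Its reads were 2549 in PBS, 75 in normo-Migs, 74 in hypo-Migs and 29 in CD147KO-Migs. It was 33.6-fold (26.7 to 42.8), 40.1-fold (31.8 to 51.2) and 89.2-fold (61.9 to 133) lower than in PBS. The transcript shares none of its 100-base windows with another gene.

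MAGEA1 (ENSG00000198681, chrX:153179285-153183880, plus strand), a human tumour antigen found through the T cells that recognise it, had 2866 reads in PBS, 518 in normo-Migs, 502 in hypo-Migs and 509 in CD147KO-Migs. It was 5.46-fold (4.97 to 6.01), 6.64-fold (6.04 to 7.31) and 5.71-fold (5.20 to 6.29) lower, and it too shares no window with another gene. With a coefficient of variation of 0.4 between replicates, assumed in place of a measured one, edgeR's exact test kept the call for hypo-Migs but not for normo-Migs or CD147KO-Migs.

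The other 5 units on the lower side had under 100 reads. MAGEB17 had 95 reads in PBS and 0, 1 and 4 in normo-Migs, hypo-Migs and CD147KO-Migs, at least 31.3-fold lower in normo-Migs. It overlaps an antisense gene with 13, 5, 0 and 0 reads over 3389 bases, and whether the counting used strand is not given in the sources used here. The MAGEA9 pair had 30 reads in PBS and 0 in each Mig library, at least 9.87-fold, 11.6-fold and 10.1-fold lower. MAGEB6B had 25 and then 0 in each, at least 8.23-fold, 9.69-fold and 8.46-fold lower. XAGE2 had 18 reads in PBS and 0, 2 and 2, and MAGEA11, which binds the androgen receptor, had 18 and then 0, 8 and 2.

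The remaining 6 units were within the fold against PBS in each Mig library. MAGEB2 (ENSG00000099399, chrX:30215560-30220089, plus strand) was the antigen with the most reads in each Mig library and over the 4 libraries, 2987 in PBS, 3855 in normo-Migs, 4521 in hypo-Migs and 3857 in CD147KO-Migs. Its ratio to PBS was 1.31 (1.25 to 1.37), 1.30 (1.24 to 1.36) and 1.27 (1.21 to 1.33). MAGEA12 had 1577, 966, 1287 and 1057 reads, with log2 fold changes of -0.69, -0.51 and -0.60. MAGEB6 had 26, 34, 30 and 26 reads. MAGEB2 thus lay above PBS and MAGEA12 below it in every Mig library, by less than the fold, and for MAGEB6 each interval of the ratio to PBS included 1.

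MAGEA3 and MAGEA6 make nearly the same protein, which binds the ligase TRIM28 and directs it to AMPK, and they stood on opposite sides of PBS. MAGEA3 (chrX:152698752-152702347, plus strand) had 3084 reads in PBS, 1618 in normo-Migs, 1800 in hypo-Migs and 1605 in CD147KO-Migs. MAGEA6 (chrX:152766136-152769747, minus strand) had 2264, 2771, 3098 and 2864. MAGEA3 was 1.88-fold (1.77 to 2.00), 1.99-fold (1.88 to 2.11) and 1.95-fold (1.83 to 2.07) lower than in PBS, just inside the fold, and MAGEA6 was 1.24 times (1.17 to 1.31), 1.18 times (1.11 to 1.24) and 1.25 times (1.18 to 1.32) the PBS level. The call for MAGEA3 in hypo-Migs turns with the scaling, since its log2 fold change of -0.99 became -1.03 without TMM and -1.01 with DESeq2 size factors.

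The share of MAGEA3 in the reads of the pair was 57.7% in PBS and 36.9%, 36.7% and 35.9% in normo-Migs, hypo-Migs and CD147KO-Migs. The transcripts share 36.1% of their 100-base windows, and their printed promoter bases are the same. Summed, the pair had 5348, 4389, 4898 and 4469 reads, 0.831 times (0.799 to 0.865), 0.788 times (0.757 to 0.819) and 0.824 times (0.791 to 0.857) the PBS level. How reads that fit both genes were handled is not given in the sources used here, so the split between them is uncertain.

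Within the GAGE and SSX2 sets, single copies differed widely between Mig libraries whose sums were close. GAGE12J (chrX:49322057-49329384) had 0 reads in PBS, 91 in normo-Migs, 439 in hypo-Migs and 111 in CD147KO-Migs. GAGE1 (chrX:49589496-49608536) had 0, 309, 79 and 252, and GAGE2A (chrX:49589529-49596827) had 1, 257, 379 and 276. GAGE1 and GAGE2A overlap on the same strand over 7299 bases. GAGE12G had 0, 2, 0 and 159 reads, at or near 0 in normo-Migs and hypo-Migs and well above the floor in CD147KO-Migs. SSX2 had 0, 211, 64 and 131 reads and SSX2B 0, 143, 259 and 146.

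Read as single genes, hypo-Migs against normo-Migs would give log2 fold changes of 2.01 for GAGE12J, -2.17 for GAGE1 and -1.92 for SSX2. The sums gave 0.13 for the GAGE family and -0.37 for the SSX2 pair. Every 100-base window of the SSX2, SSX2B and GAGE12G transcripts occurs in another gene, as do 77.4% of those of GAGE12J, 53.4% of those of GAGE2A and 8.54% of those of GAGE1. By this measure GAGE1 shares little, and the GAGE sum also nets its lower reads in hypo-Migs. Counted by single genes, 6 members were past the fold for hypo-Migs against normo-Migs and 10 for hypo-Migs against CD147KO-Migs, beside 9.34% and 9.12% of all genes, in place of 1 and 4 units.

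The comparisons among Mig libraries ask whether the hypoxia of the donor cells (hypo-Migs against normo-Migs) and their CD147 (hypo-Migs against CD147KO-Migs) changed the recipients. In CD147KO-Migs against normo-Migs the donor cells differ in both, which cannot be told apart. The summed antigen reads and the most abundant units were close in all of these comparisons, and the units past the fold had 75 reads at most in these libraries. For hypo-Migs against normo-Migs 1 of 18 units was past the fold, beside 9.31% of all features. It was MAGEA11, with 8 reads against 0. For hypo-Migs against CD147KO-Migs there were 4 units, beside 9.09% of features, and for CD147KO-Migs against normo-Migs 4, beside 9.68%. Some of the 18 units met the read filter through PBS alone. Those above the floor in a library of the pair numbered 14, 15 and 14 in these comparisons. Of the 10 units with at least 100 reads in a library, 0, 1 and 1 were past the fold in these comparisons, beside 0.562%, 0.501% and 0.554% of features by the same filter. The 1 was PAGE1 each time, which met that filter through PBS alone and had 75 reads at most here, so its call is not to be read against these shares. These comparisons share libraries with each other.

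PAGE1 was the only unit past the fold in a Mig comparison with more than 22 reads in either library. It had 75 reads in normo-Migs, 74 in hypo-Migs and 29 in CD147KO-Migs. The ratio was 2.23 (1.43 to 3.55) for hypo-Migs against CD147KO-Migs and 0.376 (0.236 to 0.585) for CD147KO-Migs against normo-Migs, while it was 0.838 (0.599 to 1.17) for hypo-Migs against normo-Migs. Both calls rest on the 29 reads of the CD147KO-Migs library. With an assumed coefficient of variation of 0.1 the first of these calls was lost and the second kept, and with 0.4 both were lost.

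The other units past the fold had few reads. MAGEC1 had 10, 22 and 6 reads in normo-Migs, hypo-Migs and CD147KO-Migs, a ratio of 3.20 (1.26 to 9.64) for hypo-Migs against CD147KO-Migs. MAGEA11 had 0, 8 and 2, MAGEB17 had 0, 1 and 4, and XAGE2 had 0, 2 and 2 reads. The interval of the ratio included 1 for MAGEA11 (0.696 to 33.7) and for MAGEB17 (0.00443 to 2.20) in hypo-Migs against CD147KO-Migs. Against the 0 reads of normo-Migs an interval has a lower end only. For CD147KO-Migs it was 0.183 for MAGEA11, 0.642 for MAGEB17 and 0.183 for XAGE2, so these intervals also included 1. For MAGEA11 in hypo-Migs against normo-Migs it was 1.45, which leaves out 1.

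The abundant antigens were bounded closely by their counts. For hypo-Migs against normo-Migs the ratio was 0.995 (0.953 to 1.04) for MAGEB2, 0.949 (0.901 to 0.999) for MAGEA6, 0.944 (0.883 to 1.01) for MAGEA3, 0.976 (0.916 to 1.04) for CTAG2 and 1.09 (0.993 to 1.20) for the GAGE family. MAGEA1 stood at 0.823 (0.726 to 0.932), MAGEA12 at 1.13 (1.04 to 1.23) and the SSX2 pair at 0.775 (0.664 to 0.903). For hypo-Migs against CD147KO-Migs the ratio was 0.896 (0.842 to 0.953) for CTAG2, 0.861 (0.759 to 0.975) for MAGEA1 and 0.944 (0.897 to 0.993) for MAGEA6. It was 1.00 (0.913 to 1.10) for the GAGE family and 1.02 (0.864 to 1.20) for the SSX2 pair, and the intervals of MAGEB2, MAGEA3 and MAGEA12 included 1. For CD147KO-Migs against normo-Migs the ratio was 1.09 (1.02 to 1.16) for CTAG2 and 0.761 (0.648 to 0.893) for the SSX2 pair, and the intervals of MAGEB2, MAGEA1, MAGEA3, MAGEA6, MAGEA12 and the GAGE family included 1. Since the intervals may be too narrow, one that only just leaves out 1, as for MAGEA6, does not show more than counting error, and the spread between cultures was not measured.

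**Figure D2:**
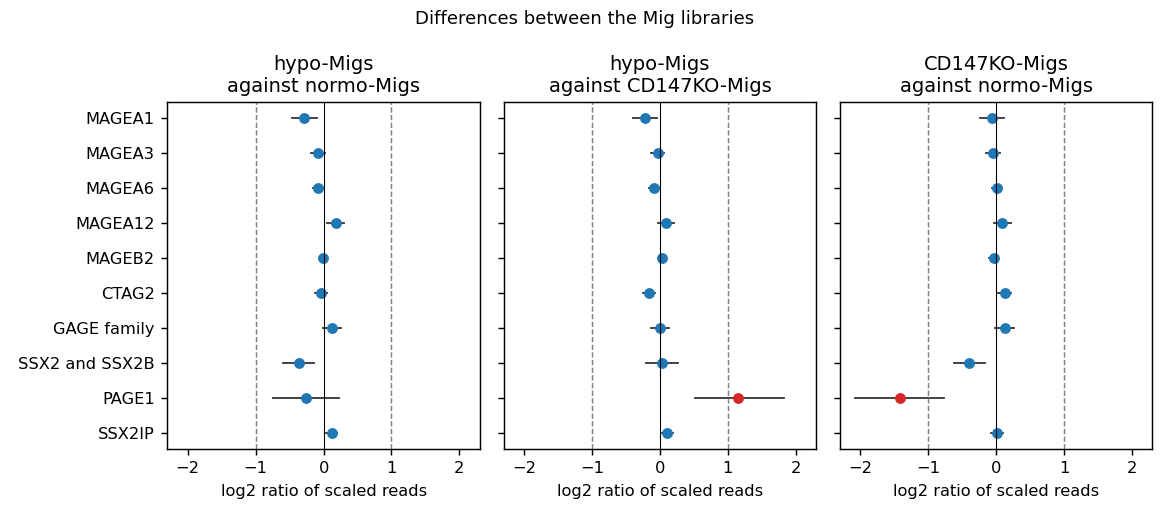
Log2 ratio of scaled reads (x axis) of the 10 units with at least 100 reads in a library, for the 3 comparisons among Mig libraries. Lines are exact 95% intervals of counting error, dashed lines mark the fold used for calls, and red points are past it. PAGE1 is past the fold in 2 of the panels; all other units lie between -0.39 and 0.18.

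Cancer-testis genes of other X-linked families that were past the fold against PBS were all higher in the Mig libraries. Of 59 such genes in the table, 10 had enough reads, and 6, 5 and 7 of them were past the fold upward in normo-Migs, hypo-Migs and CD147KO-Migs and 0 downward. Of all features compared, 18.1%, 18.8% and 18.3% were higher in the same order. Each gene called higher met the read filter through the Mig libraries alone, so the shared direction and the medians are a description and support nothing. The shares of all features apply to the lists below as well. CSAG1 had the most reads, 632 in PBS and 485, 478 and 554 in the Mig libraries. SAGE1 had 0, 363, 500 and 422, and CT83 (KK-LC-1) had 193, 299, 297 and 239. Their sum was 24.8 CPM in PBS and 37.8, 35.6 and 39.3 CPM in the Mig libraries. The median log2 fold change over all 10 was 1.44, 1.03 and 2.14, and it was 1.25, 1.82 and 2.00 with genes at 0 put at their bound, over the 9, 8 and 10 genes above the floor in a library of the pair. Among the Mig libraries 2, 4 and 2 were past the fold for hypo-Migs against normo-Migs, hypo-Migs against CD147KO-Migs and CD147KO-Migs against normo-Migs, none of them with 100 reads.

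Autosomal cancer-testis genes went both ways. Of 16 with enough reads, 2 were higher and 3 lower in normo-Migs, and 5 were higher and 5 lower in both hypo-Migs and CD147KO-Migs, with medians of 0.24, 0.36 and 0.02 over all 16 (0.23, 0.40 and 0.02 at the bound, over 15, 15 and 16). LY6K, a membrane-anchored surface protein, had 4518 reads in PBS and 2197, 2009 and 1733 in the Mig libraries, past the fold in each. PRAME, an antigen that acts with a ubiquitin ligase, had 3671, 2614, 3174 and 2709, and ODF2, a protein of sperm tails and centrioles, 1669, 2048, 2304 and 1803. In the Mig comparisons 2, 3 and 4 were past the fold.

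MAGE genes outside the rule, most of them of the ubiquitous type II class, had 8 members with enough reads. In normo-Migs and hypo-Migs 4 were higher than in PBS, in CD147KO-Migs 5, and 0 were lower. Of all features compared, 18.1%, 18.8% and 18.3% were higher in normo-Migs, hypo-Migs and CD147KO-Migs. Each MAGE gene called higher had 2 reads or fewer in PBS and met the read filter through the Mig libraries alone. Their shared direction and the medians are therefore a description and support nothing. The median log2 fold change over all 8 was 1.71, 1.64 and 1.02, and with genes at 0 put at their bound it was 1.89, 1.52 and 2.92 over the 7, 7 and 6 genes above the floor in a library of the pair. Of the 5 in CD147KO-Migs, MAGED4 and MAGED4B had 2 reads each against 0. MAGED1 had 2 reads in PBS and 1648, 1893 and 1831 in the Mig libraries. MAGED2, an adaptor of salt transport in the kidney, had 2349, 3671, 4846 and 4501, and MAGEF1 1443, 1080, 1258 and 1136. In each Mig comparison 2 were past the fold, and they were the near copies MAGED4 and MAGED4B, with 11 reads at most and not summed here. Together they had 11 reads in normo-Migs, 10 in hypo-Migs and 4 in CD147KO-Migs.

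The ligases and substrates of MAGE proteins were abundant in all libraries. TRIM28, the ligase bound by MAGEA3 and MAGEA6, had 19962 reads in PBS and 18408, 19153 and 17265 in the Mig libraries. PRKAA1, the AMPK subunit they mark, had 4490, 6603, 7718 and 6439, and TRIM27 5481, 3330, 3867 and 3412. These 3 genes were within the fold in all 6 comparisons, with log2 fold changes against PBS between -0.72 and 0.57.

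None of 8 SSX and synovial sarcoma partners was past the fold in any of the 6 comparisons, with medians between -0.08 and 0.06. SMARCA4, the BAF ATPase, had 7996, 11528, 12562 and 11129 reads, SMARCB1, the BAF subunit displaced by the fusion, 4638, 4599, 4884 and 4346, and SS18 4713, 3688, 4784 and 3749.

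Of 8 DNA methylation genes with enough reads, 2 were higher than in PBS in every Mig library and 0 lower, with medians of 0.45, 0.44 and 0.47, and 0 were past the fold between Mig libraries. The pair was DNMT3B, a de novo methyltransferase, with 198, 1634, 1917 and 1633 reads, and TET1, which oxidises methylcytosine, with 0, 80, 128 and 82. DNMT1, the maintenance enzyme, had 10036, 12765, 14306 and 12510, UHRF1, which guides it, 8983, 6548, 7560 and 6524, and HELLS, a remodeller needed for methylation, 1874, 2672, 3288 and 2962. Methylation itself was not measured.

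The class I presentation machinery, which would show these antigens to T cells, was expressed in all libraries. Of 16 genes, 1 was higher than in PBS in normo-Migs and hypo-Migs and 2 in CD147KO-Migs, and 1 was lower each time, with medians of 0.12, 0.12 and 0.16. HLA-B was the lower one, with 15735 reads in PBS and 5024, 6004 and 5362 in the Mig libraries. PSMB9, an immunoproteasome subunit, was higher, with 232, 664, 901 and 912. CALR, a chaperone of class I assembly, had 27483, 37788, 43393 and 36929 reads, B2M 33154, 28587, 35805 and 32234, and PDIA3 13808, 14976, 18139 and 15156. Between Mig libraries 0 of 16 were past the fold.

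Markers of other cells were read in the same libraries. Of 10 germ cell markers only SYCP2, of the synaptonemal complex, passed the floor, with 168, 235, 290 and 218 reads. ACR had 1 read at most, and the rest, DDX4, DAZL, PRM1 and TNP1 among them, had none. Of the liver and liver cancer markers ALB, AFP, TTR, APOB and GPC3 had 0 reads in every library, so these defining genes do not bear out the labelled liver origin, while HNF4A, a hepatocyte transcription factor, had 134, 146, 246 and 141. KRT8 had 105571, 129218, 167573 and 157507 reads, KRT18 36742, 59588, 79098 and 72651, and EPCAM 578, 1451, 1834 and 1524. FGB, a fibrinogen chain, had 0, 561, 827 and 832. Of 8 liver markers with enough reads, 3, 3 and 4 were higher and 2, 2 and 1 lower than in PBS, with medians of 0.51, 0.77 and 1.17 over all 8 (0.72, 0.89 and 1.17 at the bound, over 7, 7 and 8). The lower ones were not among the genes named here, and each had under 100 reads in every library.

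Fibroblast, endothelial and blood cell markers moved with the same split of PBS from the Mig libraries. Summed over 15 markers they gave 26.8 CPM in PBS and 167, 176 and 177 in normo-Migs, hypo-Migs and CD147KO-Migs. Of 9 with enough reads 7 were higher than in PBS each time, and 1, 0 and 0 were lower, with medians of 2.40, 2.51 and 2.53, while 0 were past the fold between Mig libraries. COL1A1, the most abundant, had 681, 3551, 4017 and 3472 reads, PDGFRB 70, 1747, 2446 and 2166, and PECAM1 16, 118, 146 and 131. The defining markers CD3E and HBB were at 0 in every library, COL1A2 at 0 in each Mig library, and PTPRC had 2 reads at most. Their part in the antigen differences from PBS was not tested.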

How the data were processed

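Raw read counts per gene, not normalised, and a second table with FPKM were deposited by the authors for the 4 libraries. The submitters' processing notes name CASAVA 1.8, fastp, HISAT2 2.0.5, featureCounts 1.5.0-p3 and build hg38, and gene coordinates in the deposited tables equal those of GENCODE 29 for all 58735 genes. The handling of strand, of read pairs and of reads with several alignments is not given in the sources used here.

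Counts were summed over the members named as copies of each other, and a feature entered the comparisons where some library had 10 reads or more on it. Libraries were scaled by TMM and log2 fold changes computed with a prior count of 2 in edgeR 4.0.16 (R 4.3.3); an absolute value of at least 1 was a call. With 1 library per condition no replicated test could be fitted; DESeq2 1.42.0 gave size factors as an alternative scaling. The fold step was tested on simulated data. Intervals of ratios are exact conditional binomial and those of levels Wilson, both 95%; the detection floor was 3 reads per library. Statements of at least a given fold use that floor and leave out counting error.

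Units with at least 100 reads in a library were named with their reads in every library, those with 10 to 99 where past the fold somewhere, and from each comparison list the 3 genes with the most reads and any past the fold between Mig libraries with 100 reads. Other genes named beside a small count or a marker list (such as DNMT3B, TET1, HLA-B, PSMB9 and FGB) were chosen after their values were seen. The members and gene lists were chosen with earlier results of these data known. One gene of the lists is not reported here. The lists were other X-linked and autosomal cancer-testis genes, MAGE genes outside the rule, MAGE ligase partners and substrates, SSX and synovial sarcoma partners, DNA methylation, class I antigen presentation, germ cell markers, liver markers, and fibroblast, endothelial and blood cell markers. Alternatives in scaling, filter, prior count, copies, call and unit are given at the end.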

Additional observations from a re-analysis of the deposited data

How the results depend on the processing

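No paired analysis was possible because each condition has 1 library, and for the same reason no replicate could be left out. Counts of units past the fold were 12, 12 and 12 for normo-Migs, hypo-Migs and CD147KO-Migs against PBS, and 1, 4 and 4 for hypo-Migs against normo-Migs, hypo-Migs against CD147KO-Migs and CD147KO-Migs against normo-Migs. With no filter on low reads, normo-Migs against PBS gave 22 and the Mig comparisons 4, 7 and 9. Requiring 10 reads in every library, which drops units absent from a library, left 2, 2 and 2 against PBS and 0, 1 and 1. Single genes gave 19 for normo-Migs against PBS, 6 for hypo-Migs against normo-Migs and 10 for hypo-Migs against CD147KO-Migs. A prior count of 0.25 gave 3 for hypo-Migs against normo-Migs. Adding an exact binomial test to the fold left 2 for hypo-Migs against CD147KO-Migs and 1 for CD147KO-Migs against normo-Migs. With edgeR's exact test at an assumed coefficient of variation of 0.1 the Mig comparisons gave 0, 0 and 1, and at 0.4 they gave 0, 0 and 0. Against PBS these settings gave 12, 11 and 11, and 10, 10 and 8; the calls lost at one or both were those of MAGEC1, MAGEA11, XAGE2 and MAGEA1, each in some of the comparisons. Differences of log2(FPKM + 1) over single genes gave 3, 2 and 2 in the Mig comparisons and 12, 11 and 11 against PBS.

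The log2 ratio of summed antigen reads was -0.26, -0.29 and -0.26 against PBS and -0.03, -0.03 and -0.0018 among Mig libraries. It was -0.30 for normo-Migs against PBS without TMM. Summed FPKM gave -0.36 for normo-Migs and -0.32 for CD147KO-Migs against PBS, and 0.0438, 0.00981 and 0.0340 among Mig libraries. Without MAGEB2 the ratios to PBS were -0.46, -0.50 and -0.45, without the GAGE family -0.35, -0.39 and -0.36, and with SSX2IP, an alternative chosen after seeing the data, -0.19, -0.20 and -0.19. Of 804 values of single units under alternatives, 768 stayed on their side of the threshold, 32 lost the call, 4 gained it and 0 reversed. The cause of these shifts was not tested beyond what each alternative removes or adds. Depth limits the units with under 100 reads most, and 25 units under 10 reads could not be compared.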
